A study of Homo sapiens with 9 samples.

Results

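ERVK is the family name for endogenous retroviruses of the HERV-K type, the class II or betaretrovirus-like elements of the human genome. The members here are the 42 rows of the deposited count table whose repeat family is ERVK, out of 61832 rows in all and 1181 rows of repeat subfamilies. Of the 42, 10 are internal sequences, whose names end in -int, and 32 are long terminal repeats (LTRs). A row sums the reads of every genomic copy of a subfamily, so it names a kind of sequence and not a locus. The rows were taken by family name alone, a rule that uses no measured value, but the choice was made with earlier results of these data known.

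The cells were HCT116, a standard line grown from a human colorectal carcinoma, with wild-type genotype in its labels. The labels give 3 libraries to each of 3 groups. The shSLC6A3 DMSO group carried a short hairpin RNA against SLC6A3, the dopamine transporter gene, and received the solvent DMSO. The shCTRL VXN group carried a control hairpin and received a treatment that the labels abbreviate as VXN without spelling it out. The shCTRL DMSO group carried the control hairpin and received DMSO. Every group thus carried a hairpin, and no label says whether a hairpin line is 1 clone. Nor does a label name separate cultures for the replicates, so each p-value below reflects library-to-library spread that can be technical.

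An intact ERVK provirus holds the retroviral genes gag, pro, pol and env between a pair of LTRs, which carry the promoter and the polyadenylation signal. Recombination between the LTRs leaves solo LTRs, which are the commonest form and can act as promoters or enhancers of nearby genes. The family is divided into HML groups, after human mouse-mammary-tumour-virus-like, and HML-2 is the youngest of them and the only one with human-specific insertions. In most adult cells these sequences are held silent by KRAB zinc finger proteins that recruit TRIM28 and the histone H3 lysine 9 methyltransferase SETDB1, and by DNA methylation. HML-2 transcripts are known from germ cell tumours, melanoma and several other cancers.

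In this classification HERVK14-int with LTR14A and LTR14B forms HML-1, and HERVK-int with the LTR5 rows forms HML-2. HERVK9-int with the MER9 rows forms HML-3, HERVK13-int with the LTR13 rows forms HML-4, HERVK22-int with the LTR22 rows forms HML-5, and HERVK3-int with the LTR3 rows forms HML-6. HERVK11D-int with MER11D forms HML-7, HERVK11-int with MER11A, MER11B and MER11C forms HML-8, HERVK14C-int with LTR14C forms HML-9, and HERVKC4-int with LTR14 forms HML-10.

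Besides the subfamily rows, 4 gene rows carry an ERVK symbol, and 2 of them were read above 1 CPM (counts per 1e6 counts of the library) in every library. They are single loci, so their start sites can be shown, which the subfamily rows do not allow. ERVK13-1 (ENSG00000260565.7) is annotated on GRCh38 (GENCODE v29) at chr16:2660349-2673444, minus strand. ERVK3-1 (ENSG00000142396.10) is annotated at chr19:58305319-58315663, plus strand. The RefSeq windows from 250 bases before to 50 bases after each start (GRCh38.p14) lie at chr16:2673390-2673689, minus strand, and chr19:58305127-58305426, plus strand. They are printed 5′ to 3′ along the gene, with each GGGCGG, the core of the GC box, or its reverse complement CCGCCC in capitals.
ERVK13-1: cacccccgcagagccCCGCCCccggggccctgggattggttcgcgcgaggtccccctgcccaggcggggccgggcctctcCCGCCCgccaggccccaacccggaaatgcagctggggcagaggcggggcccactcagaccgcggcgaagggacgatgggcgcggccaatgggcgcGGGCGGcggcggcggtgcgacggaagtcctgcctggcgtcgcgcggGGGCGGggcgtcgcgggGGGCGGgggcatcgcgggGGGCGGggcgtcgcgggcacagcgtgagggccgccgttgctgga
ERVK3-1: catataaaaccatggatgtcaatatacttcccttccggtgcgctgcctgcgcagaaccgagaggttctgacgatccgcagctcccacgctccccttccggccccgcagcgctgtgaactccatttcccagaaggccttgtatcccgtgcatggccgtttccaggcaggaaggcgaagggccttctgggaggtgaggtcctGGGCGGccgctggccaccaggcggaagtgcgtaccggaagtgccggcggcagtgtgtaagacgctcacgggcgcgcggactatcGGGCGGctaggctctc
The ERVK13-1 window held 6 matches on either strand, 44 CpG dinucleotides and a GC content of 80.7%. The ERVK3-1 window held 2 matches, 27 CpG dinucleotides and a GC content of 63.7%. Of 35116 RefSeq windows of this length, 15786 (45%) held the motif on at least 1 strand, so a match is common, and it is a description of letters and not of a factor's binding.

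The libraries held between 30.25 and 60.22 M (1e6) counts, of which 1.68% to 2.12% fell on repeats and 0.805% to 0.911% of those on ERVK. SLC6A3 stood between 0 and 0.118 CPM in every library, too low to check any label. Of the epithelial markers, EPCAM, CDH1, KRT8, KRT18, KRT19 and CDX2 were read in every library, VIL1 was at or near 0 (up to 0.112 CPM), and their sum ranged from 4168 to 4785 CPM. Of 6 markers of leukocytes, endothelium and fibroblasts, COL1A1 ranged from 18.7 to 46.4 CPM and the other 5 did not pass 0.172 CPM. The authors also deposited 2 tables of their own contrasts: one sets shCTRL V against shCTRL D, the other shDAT D against the same shCTRL D. A DESeq2 run on the labelled groups gave none of the 42 ERVK p-values in either table within a tolerance of 1e-06. A run on another set of trios gave all 42 in both tables. The shCTRL V trio takes 1 library from every labelled group: replicate 3 of shCTRL VXN, replicate 1 of shSLC6A3 DMSO and replicate 3 of shCTRL DMSO. The shDAT D trio joins replicate 1 of shCTRL VXN with replicates 1 and 2 of shCTRL DMSO, and the shCTRL D trio joins replicate 2 of shCTRL VXN with replicates 2 and 3 of shSLC6A3 DMSO. The trios are used below only as the authors' contrasts, each library is called by its label, and no treatment is read from expression.

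One library stood apart from its trio in the ERVK rows. Over the ERVK rows with a mean of at least 50 counts, log2 CPM of shCTRL VXN replicate 2 had Pearson's r of 0.994, 0.993 and 0.989 with the shDAT D libraries and of 0.978 and 0.979 with the other shCTRL D libraries, while those 2 had r of 0.998 with each other. These points are subfamilies of the same libraries and not independent. Results against shCTRL D are therefore given with and without shCTRL VXN replicate 2 for the called rows and the rows that its removal changed. Since the library was singled out on the ERVK rows themselves, the values without it are unshrunken DESeq2 log2 fold changes given as a description.

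The 42 rows differed widely in read number. In all, 19 had a mean normalised count of at least 50 over the 9 libraries, and 10 held no more than 10 counts in any library. HERVK9-int, the HML-3 internal sequence, took 19.4% of all ERVK counts, LTR5_Hs 11.4%, HERVK3-int 9.53%, MER11B 8.47%, HERVK22-int 6.5%, LTR5A 6.07% and LTR13 5.31%. These shares count reads of whole subfamilies whose copy number and length were not used here, so they do not rank subfamilies by transcription per copy. HERVK11D-int, with 0 to 5 counts a library, HERVKC4-int, with 0 to 3, and LTR5, with 0 to 9, were near the floor of detection. In 1 library, 3 counts equal 0.0498 to 0.0992 CPM, which is the level that a count of 0 allows, for counting error only.

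Summed over all 42 rows, ERVK stood at 157.8, 160.0 and 172.1 CPM in the shCTRL V libraries, against 148.8, 152.4 and 158.6 CPM in the shDAT D libraries and 135.3, 135.7 and 153.1 CPM in the shCTRL D libraries. The shCTRL V values lay above every shCTRL D value and overlapped with shDAT D. The highest shCTRL D value belonged to shCTRL VXN replicate 2. The LTR rows summed to 92.09, 92.35 and 98.77 CPM in shCTRL V, against 83.4, 87.7 and 89.85 CPM in shDAT D and 72.41, 72.93 and 89.28 CPM in shCTRL D. The internal rows summed to 65.67, 67.63 and 73.3 CPM in shCTRL V, against 64.69, 65.39 and 68.74 CPM in shDAT D and 62.38, 63.27 and 63.83 CPM in shCTRL D. The gap between the lowest shCTRL D libraries and the rest was therefore wider in the LTR rows than in the internal rows.

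On the scale of repeat counts the order changed. ERVK took 8086, 8113 and 8203 counts per 1e6 repeat counts in shCTRL V, against 8511, 8614 and 9114 in shDAT D and 8049, 8057 and 8744 in shCTRL D. All shCTRL V values now lay below all shDAT D values. This scale also moves with the other repeats, among them the retroviral family ERV1. ERV1 summed to 5258 to 6204 CPM in shCTRL V, 2630 to 3299 CPM in shDAT D and 2963 to 4742 CPM in shCTRL D. The part of ERV1 in this order was not tested. The log2 ratio of trio means, shCTRL V over shCTRL D, was 0.21 per library total and -0.03 per repeat total. These sums are descriptions and carry no test. The summed epithelial markers stood at 4604 to 4785 CPM in shCTRL V, 4168 to 4260 CPM in shDAT D and 4195 to 4359 CPM in shCTRL D. These markers did not move alike. CDH1, KRT8, KRT18 and KRT19 had their highest trio mean in shCTRL V, and EPCAM and CDX2 their lowest. In shCTRL V, shDAT D and shCTRL D the means were 217, 105 and 105 CPM for CDH1, and 334, 350 and 376 CPM for EPCAM. The summed markers of other cell types, nearly all COL1A1, stood at 32.29 to 46.46 CPM in shCTRL V, 32.79 to 37.55 CPM in shDAT D and 18.7 to 36.97 CPM in shCTRL D. Their part in the ERVK results was not tested.

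**Figure D1:**
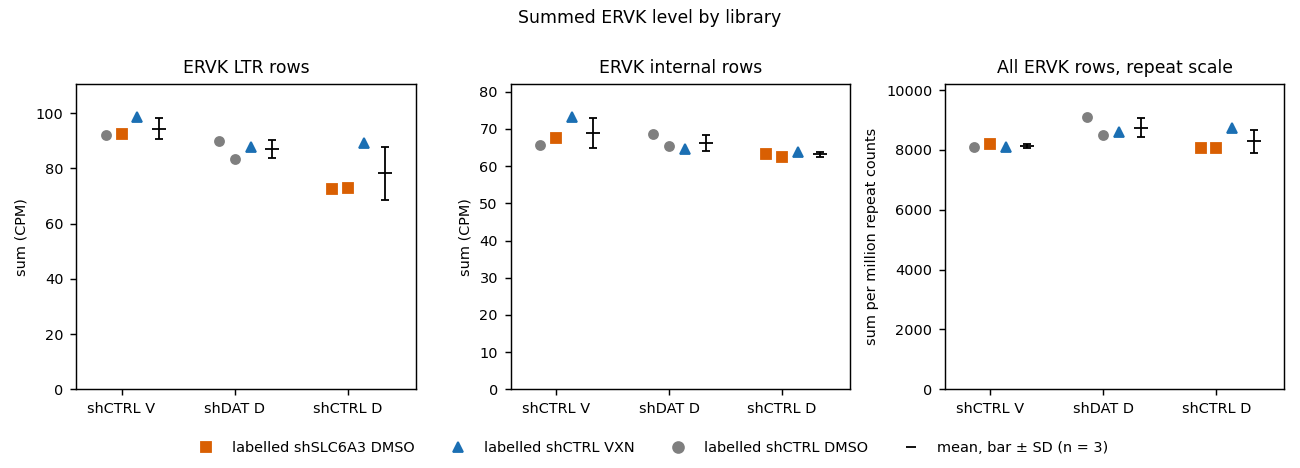
Summed ERVK level in each library (points, shaped by labelled group) by the trios of the deposited tables, for LTR rows and internal rows in CPM and for all ERVK rows per 1e6 repeat counts, with the trio mean ± SD (n = 3). The LTR sum is lowest, at 72.41 and 72.93 CPM, in the libraries labelled shSLC6A3 DMSO replicates 2 and 3, and the repeat scale removes the shCTRL V lead.

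The labelled comparison of shSLC6A3 DMSO with shCTRL DMSO set the libraries labelled with the dopamine transporter hairpin against those labelled control. Each labelled group mixed libraries of different trios, and SLC6A3 was too low to check any label. The labelled results therefore cannot be read as the effect of the hairpin or of VXN on ERVK RNA. After a filter on low counts, 32 of the 42 rows were tested with edgeR's quasi-likelihood test among 20402 features, and an adjusted p (Benjamini-Hochberg over all features) under 0.05 was called. No ERVK row was called, against 0% of all features, and 0 of 32 had an unadjusted p under 0.05. DESeq2 also called 0 of the 42 rows it gave an adjusted p, with 0 at an unadjusted p under 0.05. The median log2 fold change was -0.05 over the 32 rows and -0.01 over all features. The labelled comparison of shCTRL VXN with shCTRL DMSO called 0 of 32 rows with edgeR, against 0.00980% of all features, and 0 with DESeq2, with 0 at an unadjusted p under 0.05 by either tool. Its median was 0.04 over the ERVK rows and 0.00 over all features.

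Libraries of each labelled group fell into different trios. LTR13_, an HML-4 LTR, read 2.58, 0.266 and 0.226 CPM in the libraries labelled shSLC6A3 DMSO, against 1.23, 0.785 and 2.47 CPM in those labelled shCTRL DMSO. Their means were 1.03 ± 1.35 CPM and 1.5 ± 0.872 CPM (SD, n = 3 each). The edgeR log2 fold change of LTR13_ was -0.52 (SE 0.97, adjusted p = 0.999). In the libraries labelled shCTRL VXN, LTR13_ read 0.926, 0.673 and 2.19 CPM, with a log2 fold change of -0.23 (SE 0.96, adjusted p = 1 in edgeR) against shCTRL DMSO. Each labelled group held 1 library above 2 CPM, and that library was in each case the 1 in the shCTRL V trio. HERVK9-int, in contrast, kept within 28.4 and 32.3 CPM in all 9 libraries. Its log2 fold changes were -0.01 (SE 0.10, adjusted p = 0.999 in edgeR) in the labelled hairpin comparison and 0.03 (SE 0.10, adjusted p = 1 in edgeR) in the labelled VXN comparison.

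In the authors' deposited table of shCTRL V against shCTRL D, 34 ERVK rows had an adjusted p, 8 were called higher and 0 lower. The 8 called rows are 23.5% of the 34. Of all features, 21.4% were called higher and 22.7% lower (44.0% in either direction), so the share of ERVK rows called higher was near that of all features. The median log2 fold change was 0.14 over the ERVK rows and 0.00 over all features in the authors' deposited table. A row with an adjusted p had a mean normalised count of at least 2.658, so the other 8 rows could not be called. The 8 higher rows were the LTRs LTR13_, LTR5A, LTR5_Hs, LTR13A, MER9a3 and LTR22E and the internal sequences HERVK11-int and HERVK14-int. These log2 fold changes were shrunken towards 0 by the authors. Values below with repeat size factors or with a library left out are unshrunken, so they can exceed the deposited values for that reason alone.

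**Figure D2:**
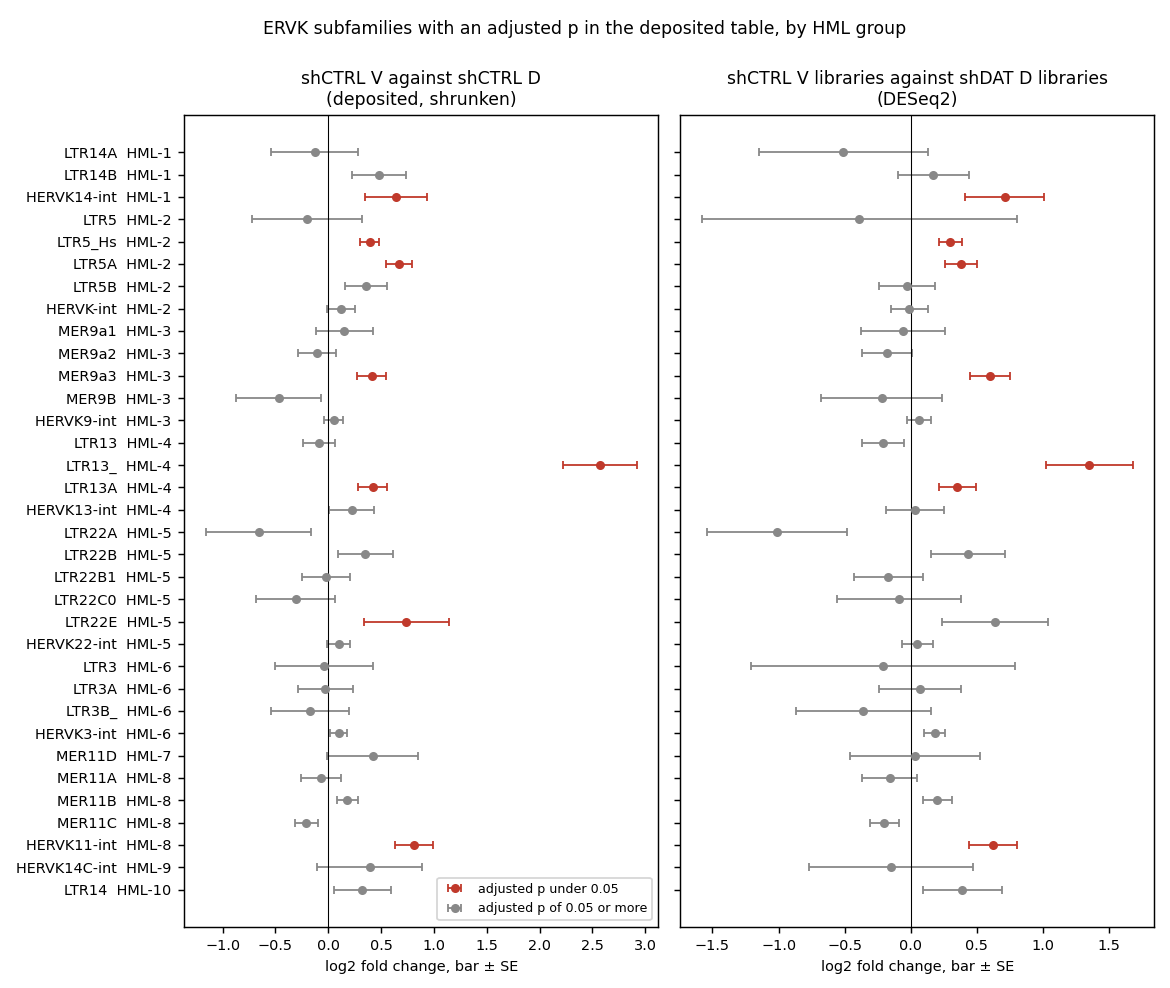
Log2 fold change ± SE of the 34 ERVK rows with an adjusted p in the authors' deposited table of shCTRL V against shCTRL D (left, shrunken) and of the same rows between the shCTRL V and shDAT D libraries (right, DESeq2), grouped by HML group. Red points have an adjusted p under 0.05: 8 on the left and 7 on the right, all positive, with LTR13_ farthest out at 2.57 and 1.35.

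Between the shCTRL V and shDAT D libraries, a contrast that uses no shCTRL D library, DESeq2 called 7 of 39 ERVK rows higher (17.9%) and 0 lower. Of all features in that contrast, 20.4% were called higher and 21.2% lower, so the higher share of ERVK rows again lay near the background. All 7 were among the 8 rows of the authors' deposited table, and LTR22E was the row left out. The median log2 fold change was 0.03 over the ERVK rows and -0.02 over all features. Both contrasts share the shCTRL V libraries, so their calls are not independent.

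The libraries were also compared without a model. Among the 34 rows, 11 had every shCTRL V library above every shCTRL D library, where 26.6% of all features did. In 8 of the 34 every shCTRL V library stood above all 6 others, where 22.7% of all features did. In the other direction, 4 of the 34 (MER9a2, MER9B, LTR22C0 and MER11C) had every shCTRL V library below every shCTRL D library, where 27.8% of all features did, and MER11C alone lay below all 6 others, where 24.6% of all features did. The 8 rows above all others were LTR13_, LTR5A, LTR5_Hs, LTR13A, MER9a3, HERVK11-int, HERVK14-int and HERVK3-int.

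LTR13_ of HML-4 had the largest log2 fold change of the called rows. It read 2.47, 2.58 and 2.19 CPM in the shCTRL V libraries, from 104, 120 and 104 counts. It read 1.23, 0.785 and 0.926 CPM in shDAT D, from 63, 35 and 28 counts, and 0.266, 0.226 and 0.673 CPM in shCTRL D, from 16, 12 and 36 counts. The trios did not overlap, and they ran from shCTRL V through shDAT D down to shCTRL D. The authors' deposited table gave 2.57 (SE 0.35, adjusted p = 2.49e-13, DESeq2), and the unshrunken rerun gave 2.66 with a 95% interval of 1.98 to 3.35. Against shDAT D the log2 fold change was 1.35 (SE 0.33, adjusted p = 0.00015, DESeq2). Without shCTRL VXN replicate 2, the value against shCTRL D became 3.26.

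The other rows of HML-4 had smaller log2 fold changes. LTR13A, a related LTR, read 5.96, 4.82 and 5.67 CPM in shCTRL V, 4.70, 4.22 and 4.53 CPM in shDAT D and 4.05, 3.76 and 4.36 CPM in shCTRL D. Every shCTRL V value of LTR13A lay above all others. The authors' deposited table gave 0.42 (SE 0.14, adjusted p = 0.00406, DESeq2), or 0.44 in the unshrunken rerun. That call was lost with size factors from repeats alone (0.35, adjusted p = 0.0536, DESeq2), and LTR13A stood at 0.46 without shCTRL VXN replicate 2. Against shDAT D it was 0.35 (SE 0.14, adjusted p = 0.0341, DESeq2), a call lost without any single library except shSLC6A3 DMSO replicate 1, with adjusted p between 0.0675 and 0.172. LTR13 itself read 7.34, 7.22 and 7.65 CPM in shCTRL V, 9.23, 8.25 and 9.19 CPM in shDAT D and 6.84, 6.74 and 10.5 CPM in shCTRL D. The shCTRL V values of LTR13 lay inside the range of shCTRL D, whose highest library was shCTRL VXN replicate 2, and its log2 fold change in the authors' deposited table was -0.09 (SE 0.15, adjusted p = 0.648, DESeq2). HERVK13-int, the internal sequence, read 2.09, 2.18 and 1.66 CPM in shCTRL V, 2.37, 1.79 and 1.85 CPM in shDAT D and 1.54, 1.45 and 1.98 CPM in shCTRL D, at 0.22 (SE 0.21, adjusted p = 0.361, DESeq2) in the authors' deposited table.

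HML-2 is the youngest group, and LTR5_Hs is the LTR of its human-specific copies. LTR5_Hs read 19.9, 20.2 and 19.9 CPM in shCTRL V, against 17.7, 15.5 and 17.6 CPM in shDAT D and 15.1, 14.2 and 16.6 CPM in shCTRL D. The 3 shCTRL V libraries were nearly equal and lay above all others. The authors' deposited table gave 0.39 (SE 0.09, adjusted p = 3.07e-05, DESeq2), and against shDAT D it was 0.30 (SE 0.09, adjusted p = 0.0027, DESeq2). The call against shDAT D was lost without shCTRL DMSO replicate 2, at 0.23 (adjusted p = 0.0555, DESeq2). Against shCTRL D without shCTRL VXN replicate 2, LTR5_Hs stood at 0.42.

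LTR5A, an older HML-2 LTR, read 11.7, 11 and 12.2 CPM in shCTRL V, against 9.05, 9.17 and 9.59 CPM in shDAT D and 6.64, 6.30 and 8.88 CPM in shCTRL D. The trios again did not overlap, with shDAT D between the other two. The authors' deposited table gave 0.67 (SE 0.12, adjusted p = 1.46e-07, DESeq2), and against shDAT D it was 0.38 (SE 0.12, adjusted p = 0.00591, DESeq2). The value of LTR5A against shCTRL D was 0.81 without shCTRL VXN replicate 2. LTR5B, the remaining well-read LTR of the group, read 6.43, 7.73 and 7.67 CPM in shCTRL V, 8.13, 7.36 and 7.67 CPM in shDAT D and 4.15, 4.40 and 8.23 CPM in shCTRL D. Only the libraries labelled shSLC6A3 DMSO replicates 2 and 3 were low. Its log2 fold change in the authors' deposited table was 0.36 (SE 0.20, adjusted p = 0.111, DESeq2), and without shCTRL VXN replicate 2 it was 0.74 (SE 0.14).

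HERVK-int, the HML-2 internal sequence with the gag, pol and env genes, read 5.84, 7.28 and 6.62 CPM in shCTRL V, 6.39, 6.86 and 7.57 CPM in shDAT D and 6.14, 6.25 and 5.70 CPM in shCTRL D. The trios overlapped, and the authors' deposited table gave 0.12 (SE 0.13, adjusted p = 0.475, DESeq2). The unshrunken 95% interval of HERVK-int ran from -0.14 to 0.40, which does not exclude a change the size of LTR5_Hs at 0.39, and without shCTRL VXN replicate 2 the value was 0.06 (SE 0.14). LTR5, with 4, 2 and 1 counts in shCTRL V, 8, 2 and 0 counts in shDAT D and 8, 2 and 9 counts in shCTRL D, was too low to compare.

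HML-8 gave the called internal sequence with the smallest p. HERVK11-int read 3.42, 3.40 and 4.22 CPM in shCTRL V, against 2.74, 2.31 and 2.45 CPM in shDAT D and 1.98, 1.91 and 2.28 CPM in shCTRL D. Every shCTRL V library lay above every other library. The authors' deposited table gave 0.81 (SE 0.18, adjusted p = 5.87e-06, DESeq2), and against shDAT D it was 0.62 (SE 0.18, adjusted p = 0.00185, DESeq2). Against shCTRL D it stood at 0.90 without shCTRL VXN replicate 2. The MER11 LTRs of the same group were not called. MER11B read 12.8, 13.4 and 15.2 CPM in shCTRL V, 13.6, 11.7 and 12.3 CPM in shDAT D and 11.8, 12.5 and 12.6 CPM in shCTRL D, at 0.18 (SE 0.10, adjusted p = 0.161, DESeq2) in the authors' deposited table. MER11C read 6.17, 6.22 and 6.07 CPM in shCTRL V, 7.21, 7.27 and 7.64 CPM in shDAT D and 7.37, 6.93 and 7.35 CPM in shCTRL D, with every shCTRL V library below all others. In the authors' deposited table MER11C stood at -0.21 (SE 0.11, adjusted p = 0.0843, DESeq2). With size factors from repeats alone it was -0.32 (adjusted p = 0.0389, DESeq2), a call that the scaling on all features did not make. MER11A stood at -0.07 (SE 0.19, adjusted p = 0.803, DESeq2) in the authors' deposited table.

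**Figure D3:**
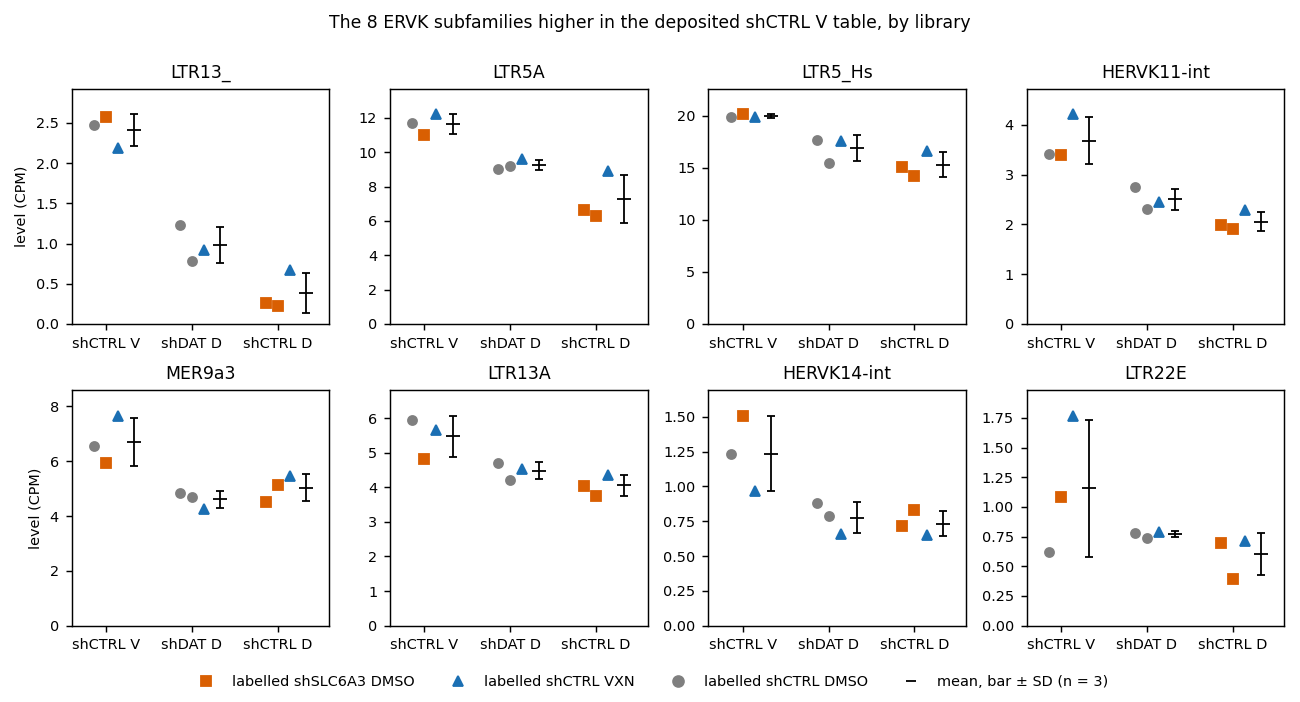
Level in CPM of the 8 ERVK rows called higher in the authors' deposited table of shCTRL V against shCTRL D, in each library (points, shaped by labelled group) by trio, with the trio mean ± SD (n = 3). All rows but LTR22E have every shCTRL V library above every other library, and shCTRL VXN replicate 2 is the highest shCTRL D point in all rows but HERVK14-int.

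In HML-3 the LTR row MER9a3 was called and the internal sequence HERVK9-int was not, and the difference between the rows was not tested. MER9a3 read 6.55, 5.94 and 7.67 CPM in shCTRL V, against 4.86, 4.71 and 4.26 CPM in shDAT D and 4.50, 5.13 and 5.46 CPM in shCTRL D. The shCTRL V libraries lay above the rest, and the other trios overlapped. The authors' deposited table gave 0.41 (SE 0.14, adjusted p = 0.00657, DESeq2), or 0.43 in the unshrunken rerun. That call was lost with size factors from repeats alone (0.33, adjusted p = 0.0667, DESeq2), without shSLC6A3 DMSO replicate 2 (0.37, adjusted p = 0.0636, DESeq2) and without shCTRL VXN replicate 3 (0.32, adjusted p = 0.0822, DESeq2). Against shDAT D it was 0.60 (SE 0.15, adjusted p = 0.000149, DESeq2), and against shCTRL D without shCTRL VXN replicate 2 it was 0.46. The other MER9 rows, not called, stood at 0.15 for MER9a1, -0.11 for MER9a2 and -0.47 for MER9B in the authors' deposited table. HERVK9-int read 28.5, 28.5 and 32.3 CPM in shCTRL V, 31.8, 28.6 and 28.4 CPM in shDAT D and 28.8, 28.4 and 29.4 CPM in shCTRL D. Its trios overlapped, at 0.05 (SE 0.09, adjusted p = 0.687, DESeq2) in the authors' deposited table, with an unshrunken 95% interval of -0.12 to 0.22.

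The last called rows were weakly read. HERVK14-int of HML-1 read 1.23, 1.51 and 0.967 CPM in shCTRL V, against 0.882, 0.785 and 0.661 CPM in shDAT D and 0.714, 0.830 and 0.655 CPM in shCTRL D. The authors' deposited table gave 0.64 (SE 0.29, adjusted p = 0.025, DESeq2), or 0.76 in the unshrunken rerun. Against shDAT D it was 0.71 (SE 0.30, adjusted p = 0.0443, DESeq2). The call in the authors' table was lost without shCTRL DMSO replicate 3 (adjusted p = 0.0784, DESeq2), shSLC6A3 DMSO replicate 1 (0.207), shSLC6A3 DMSO replicate 2 (0.0864) or shCTRL VXN replicate 2 (0.101), and with size factors from repeats alone (0.65, adjusted p = 0.0822, DESeq2). The call against shDAT D was lost without any single library except shCTRL VXN replicate 3, with adjusted p between 0.0721 and 0.241. LTR22E of HML-5 read 0.617, 1.08 and 1.77 CPM in shCTRL V, 0.784, 0.740 and 0.793 CPM in shDAT D and 0.697, 0.396 and 0.711 CPM in shCTRL D, so its trios overlapped. The authors' deposited table gave LTR22E 0.74 (SE 0.40, adjusted p = 0.039, DESeq2), or 0.95 in the unshrunken rerun. That call was lost without shSLC6A3 DMSO replicate 1 (1.01, adjusted p = 0.0912, DESeq2), shSLC6A3 DMSO replicate 3 (0.74, adjusted p = 0.173) or shCTRL VXN replicate 3 (0.51, adjusted p = 0.36). It was also lost with size factors from repeats alone (0.86, adjusted p = 0.0639, DESeq2) and with no independent filtering (adjusted p = 0.0623, DESeq2), and without shCTRL VXN replicate 2 LTR22E stood at 1.05.

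The internal sequences of HML-5 and HML-6 were not called with DESeq2. HERVK22-int read 9.33, 9.54 and 11.4 CPM in shCTRL V, 10.4, 10.2 and 9.92 CPM in shDAT D and 9.70, 9.32 and 9.20 CPM in shCTRL D, at 0.10 (SE 0.11, adjusted p = 0.479, DESeq2) in the authors' deposited table. HERVK3-int read 15.0, 14.9 and 15.7 CPM in shCTRL V, against 14.0, 14.5 and 13.5 CPM in shDAT D and 14.2, 14.1 and 14.4 CPM in shCTRL D. The shCTRL V libraries of HERVK3-int lay above all others by a small margin, at 0.10 (SE 0.08, adjusted p = 0.346, DESeq2) in the authors' deposited table. Against shDAT D it was 0.18 (SE 0.08, adjusted p = 0.0843, DESeq2). In that contrast edgeR on the same trios called HERVK3-int higher (0.18, adjusted p = 0.0365 in edgeR). HERVK14C-int of HML-9 held 5 to 14 counts a library and gave 0.39 (SE 0.50, adjusted p = 0.294, DESeq2) in the authors' deposited table. By group, the rows called in the authors' deposited table were 1 of 3 in HML-1, 2 of 5 in HML-2, 1 of 5 in HML-3, 2 of 4 in HML-4, 1 of 6 in HML-5 and 1 of 4 in HML-8. None was called among 4 rows of HML-6 and 1 row each of HML-7, HML-9 and HML-10. By part, 2 of 8 internal rows and 6 of 26 LTR rows were called, shares near the 21.4% of all features called higher.

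The authors' deposited table of shDAT D against shCTRL D called no ERVK row. Only 4 of the 42 rows had an adjusted p there, since rows with a mean normalised count under 474.2 had none. Those 4 were HERVK9-int at -0.01, HERVK3-int at -0.04, MER11B at -0.01 and LTR5_Hs at 0.06 on the log2 scale, with adjusted p of 0.921, 0.541, 0.926 and 0.447 (DESeq2). Of all features with an adjusted p in that table, 1% were called higher and 5.62% lower. Of all 42 rows, 3 had an unadjusted p under 0.05 in the authors' deposited table: LTR13_ at 1.07, LTR5A at 0.19 and LTR5B at 0.11. edgeR on the same trios called 0 of 32 rows, with 3 at an unadjusted p under 0.05. Both deposited contrasts share the shCTRL D libraries, so a row low in those libraries is moved the same way in both.

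Without shCTRL VXN replicate 2, DESeq2 called 4 of 32 ERVK rows higher in shDAT D than in the remaining shCTRL D libraries and 0 lower. That library was left out because its ERVK rows read like shDAT D, so these calls depend on that choice and are no independent test. Leaving out any other single library called 0 rows, with an adjusted p for 42 rows in 2 of those fits and for 0 rows in the other 3. Without shCTRL VXN replicate 2, LTR13_ stood at 1.92 (SE 0.38), LTR5B at 0.77 (SE 0.14), LTR5A at 0.43 (SE 0.11) and LTR13 at 0.30 (SE 0.12). Of all features, 13.8% were then called higher and 21.1% lower, so the 4 of 32 rows are again near the background share. In the contrast of shCTRL V with the same remaining libraries, 8 rows were called higher and 0 lower, where 22.1% of all features were higher and 23.1% lower. Of those 8, 7 were shared with the authors' deposited table, LTR5B came in and HERVK14-int dropped out. The remaining shCTRL D libraries are both labelled shSLC6A3 DMSO, and their LTR13_, LTR5A and LTR5B levels were the lowest of the 9 libraries.

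**Figure D4:**
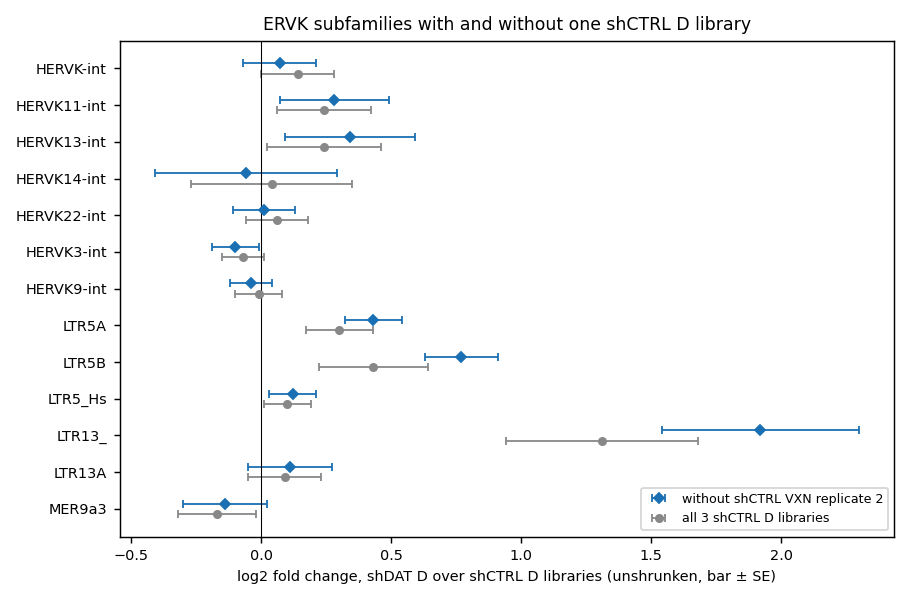
Log2 fold change ± SE of ERVK rows in the shDAT D libraries over the shCTRL D libraries (DESeq2, unshrunken), without shCTRL VXN replicate 2 (blue) and with all 3 shCTRL D libraries (grey). LTR13_, LTR5B and LTR5A move to 1.92, 0.77 and 0.43 without that library, while HERVK9-int and HERVK3-int stay near 0.

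The single-locus gene rows were read beside their subfamilies. ERVK13-1 read 7.17, 6.83 and 7.04 CPM in shCTRL V, against 2.78, 2.27 and 2.12 CPM in shDAT D and 3.35, 2.85 and 2.86 CPM in shCTRL D. The shCTRL V libraries of ERVK13-1 lay well above the rest, and every shDAT D library lay below every shCTRL D library by a smaller margin. The authors' deposited table gave 1.19 (SE 0.15, adjusted p = 9.73e-15, DESeq2), and against shDAT D it was 1.60 (SE 0.16, adjusted p = 5.01e-22, DESeq2). ERVK13-1 stood at 1.15 against shCTRL D without shCTRL VXN replicate 2. HERVK13-int, the subfamily of the same name, stood at 0.22 and 0.03 in those contrasts and was not called. In shDAT D against shCTRL D, ERVK13-1 stood at -0.19 (SE 0.20, no adjusted p) in the authors' deposited table. That value was -0.38 in the unshrunken rerun and -0.45 (SE 0.18) without shCTRL VXN replicate 2.

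ERVK3-1 read 8.33, 8.42 and 6.93 CPM in shCTRL V, 6.19, 6.17 and 5.62 CPM in shDAT D and 8.64, 8.87 and 6.10 CPM in shCTRL D. The library shCTRL VXN replicate 2 read 6.10 CPM, near shDAT D and below the other shCTRL D libraries. The authors' deposited table gave ERVK3-1 a log2 fold change of 0.00 (SE 0.16, adjusted p = 0.99, DESeq2), and against shDAT D it was 0.45 (SE 0.18, adjusted p = 0.0259, DESeq2). ERVK3-1 stood at -0.18 (SE 0.12) in shCTRL V against shCTRL D without shCTRL VXN replicate 2. In shDAT D against shCTRL D it was -0.27 (SE 0.23, no adjusted p) in the authors' deposited table, or -0.45 in the unshrunken rerun. Without shCTRL VXN replicate 2 that value was -0.63 (SE 0.13). ERVK13-1 and ERVK3-1 were called lower in that fit (DESeq2), where 21.1% of all features were. That library was left out because of its ERVK rows, so these calls are no independent test. ERVK9-11 held 3 to 13 counts and ERVK-28 0 or 1. C4B, a complement gene whose long form carries HERVKC4 in an intron, stood at 0.97 (SE 0.32, adjusted p = 0.00149, DESeq2) in the authors' deposited table, but C4A and C4B are near-identical copies whose reads may be split between them, and C4A ranged from 0 to 1.25 CPM. The library kit did not mark strand, so reads of a repeat and of a gene on the opposite strand, and transcription from an LTR and read-through from a host gene, cannot be told apart. In bulk RNA, fewer cells with a transcript and less transcript per cell cannot be told apart either.

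A list of genes of retroelement and heterochromatin silencing was counted in the same tables. Whether each of them acts on ERVK in these cells was not tested. In the authors' deposited table of shCTRL V against shCTRL D, 13 of 23 silencing genes were lower and 4 higher, with a median log2 fold change of -0.43 against 0.00 over all features, and 22.7% of all features were lower and 21.4% were higher. Of those named by adjusted p, the corepressor TRIM28 read 477, 484 and 529 CPM in shCTRL V, against 774, 734 and 747 CPM in shDAT D and 799, 823 and 854 CPM in shCTRL D. Its log2 fold change in the authors' deposited table was -0.72 (SE 0.06, adjusted p = 3.79e-29, DESeq2). The maintenance methyltransferase DNMT1 stood at -1.61, its recruiter UHRF1 at -2.60, the remodeler HELLS at -2.99, the H3K9 methyltransferases SUV39H1 at -2.11 and EHMT2 at -0.82, and the HP1 proteins CBX1 at -0.87 and CBX3 at -0.81 in the authors' deposited table. Of the HUSH complex, PPHLN1 was lower at -0.43 (SE 0.08, adjusted p = 1.02e-07, DESeq2), MPHOSPH8 was not called at -0.01, and TASOR was higher at 0.13. SETDB1, the methyltransferase recruited by TRIM28, was also among the higher ones at 0.17 (SE 0.07, adjusted p = 0.0401, DESeq2). The others were the HUSH-associated ATPase MORC2 at 0.27 and the zinc finger gene ZNF587 at 0.19 in the authors' deposited table. These 4 higher calls fell to 0 with size factors from repeats alone, to 0 without shCTRL DMSO replicate 3, to 1 with no independent filtering and to between 1 and 3 when any other single library was left out, while 13 genes were lower in each of these fits. With edgeR on the same trios all 4 stayed higher and the 13 stayed lower. ZNF417 was then also called higher (0.31, adjusted p = 0.0352 in edgeR). Without shCTRL VXN replicate 2, DESeq2 called 3 higher and 13 lower, with TRIM28 at -0.74 and SETDB1 at 0.20. The lower silencing factors and the 8 higher ERVK rows belong to the same libraries, and the part of one in the other was not tested.

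Between shCTRL V and shDAT D libraries, 3 of the 23 silencing genes were higher and 13 lower with DESeq2, beside 20.4% and 21.2% of all features. TRIM28 was the 1 called gene of 20 in the authors' deposited table of shDAT D against shCTRL D, at -0.16 (SE 0.06, adjusted p = 0.0499, DESeq2). This share was near the 5.62% of all features called lower in that table, and edgeR on the same trios called 0 of 20402 features. Without shCTRL VXN replicate 2, 4 of the 23 were higher and 12 lower in that contrast, where 13.8% of all features were higher and 21.1% lower. In the labelled comparisons edgeR called 0 of 23, with 0 at an unadjusted p under 0.05 for the hairpin and 1 for VXN. Of 8 transcription factors reported to bind or activate ERVK LTRs, 7 had an adjusted p in the authors' deposited table of shCTRL V against shCTRL D. There SP1 (0.14) and the NF-kB subunit RELA (0.28) were higher, and YY1 (-0.39) and SOX2 (-0.81) lower, but SOX2 did not pass 0.165 CPM in any library and was not called without shCTRL VXN replicate 2, where SP3 (-0.21) and NFKB1 (-0.31) were called lower. The 2 higher and 2 lower of 7 are near the 21.4% and 22.7% of all features.

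Other retroviral families were counted in the same way. In the authors' deposited table of shCTRL V against shCTRL D, ERV1 had 29 rows higher and 17 lower of 272, ERVL 11 and 4 of 115, and ERVL-MaLR 8 and 3 of 76. Of all features, 21.4% were called higher and 22.7% lower there. All repeats together had 129 higher and 43 lower of 998, or 12.9% higher, beside 23.5% of the ERVK rows. Median log2 fold changes were 0.05, 0.06, 0.08 and 0.07 in these sets, beside 0.14 for ERVK. Between shCTRL V and shDAT D libraries ERV1 had 21 rows higher and 33 lower of 284 with DESeq2, beside 7 and 0 of 39 for ERVK. In that contrast 20.4% of all features were higher and 21.2% lower. These differences between families were not tested. The summed ERV1 level was 5284, 5258 and 6204 CPM in shCTRL V, 3299, 3143 and 2630 CPM in shDAT D and 4683, 4742 and 2963 CPM in shCTRL D, so shCTRL VXN replicate 2 again read like shDAT D.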

How the data were processed

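Per the labels, libraries were made with a TruSeq RNA v2 kit for an Illumina NextSeq instrument. The submitters' processing notes name fastp 0.20.1, FastQC 0.11.9, STAR without a version, GRCh38 and DESeq2 1.34.0. The counting program, and its rule for reads with several alignments, which bears most on ERVK rows, were not given in the sources used here. Raw counts per gene and repeat subfamily were deposited by the authors. The base mean (mean signal of normalised counts), shrunken log2 fold changes, p-values and adjusted p-values were deposited by the authors from DESeq2.

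The members and the lists of factors were chosen with earlier results of these data known. The title of 1 VXN library spells VNN, and its treatment label was used. Labelled groups were tested with edgeR 4.0.16 (R 4.3.3; TMM scaling, filterByExpr by group, 1 fit of 9 libraries), adjusted over 20402 features (19488 genes and 914 repeats). DESeq2 1.42.0 was rerun on the table trios, with its p-values compared with those deposited at a tolerance of 1e-06: all 38907 fell within it in each table, while the labelled groups gave 0 for shCTRL V and 547 (1.41%) for shDAT D. Only the DESeq2 rerun gives the 95% intervals and the contrast of shCTRL V with shDAT D. The scripts were tested on simulated counts. Totals of 30.25 to 60.22 M counts set the precision, and floors of 3 counts cover counting error only.

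Rows are named by this rule: every internal sequence, every LTR5 row, and called rows with a base mean of at least 50. Genes with an ERVK symbol, C4A and C4B, and up to 8 called factors by adjusted p are added. LTR22E, LTR22C0, LTR22C2, LTR13, MER9a1, MER9a2, MER9B, the MER11 rows and the factors beyond 8 were named after their values were seen. Alternatives were other scalings, filters and tools, a 1.5-fold threshold, no independent filtering, the replicate block and leaving out each library.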

Additional observations from a re-analysis of the deposited data

How the results depend on the processing

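In the labelled comparisons, the count of called ERVK rows stayed 0 with DESeq2, with other scalings, with no filter, with only the 2 groups compared and without any single library; without shSLC6A3 DMSO replicate 1, 6 rows had an unadjusted p under 0.05. With the replicate block, 0 rows were called in both labelled comparisons. Same-numbered libraries did not all deviate together (r between -0.798 and 0.943), nor did each correlate best with its own number. The sign of r followed the trios: it was positive only between libraries both inside or both outside the shCTRL V trio. The check therefore cannot show whether the numbers pair samples. For shCTRL V against shCTRL D (8 called), edgeR called 10, 9 higher and MER9B lower (-0.67), size factors from repeats alone 5 (4 higher, MER11C lower, with LTR13A, MER9a3, HERVK14-int and LTR22E lost), a 1.5-fold threshold 5, no independent filtering 7, and leaving out 1 library 6 to 8. Against shDAT D (7 called), edgeR called 8, with HERVK3-int added. There a 1.5-fold threshold called 4, and leaving out 1 library 4 to 6, with 4 without shCTRL DMSO replicate 2. For shDAT D against shCTRL D (0 called), repeat size factors called 1, LTR13_ (1.18, adjusted p = 0.0172, DESeq2), and leaving out 1 library 0 to 4; rows with an adjusted p were 0 to 42 in those fits. Repeat size factors shifted the median of all features by -0.10 for shCTRL V and -0.17 for shDAT D against shCTRL D, and 14.8% of features were then higher and 23.9% lower for shCTRL V, and 0.852% and 26.0% for shDAT D. The log2 ratio of the summed level, shCTRL V over shCTRL D, was 0.21, and -0.03 per 1e6 repeat counts, 0.22 with size factors and 0.25 without HERVK9-int. ERV1 calls against shCTRL D (46) ranged from 25 to 45, ERVL calls (15) from 10 to 24 and ERVL-MaLR calls (11) from 8 to 20 when 1 library was left out. Of the values of single named rows, 776 kept direction and side of the threshold, 6 passed it, 20 lost it and 0 changed sign while called. The 1.5-fold threshold against shDAT D, no independent filtering and the DESeq2 rerun were chosen after seeing the data. Depth limits the 10 rows with 10 counts or fewer in every library: 0 were called, and LTR22C2 had an unadjusted p under 0.05 in shCTRL V against each other trio (DESeq2).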
